A study of Mus musculus with 23 samples.

Results

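The genes described here are 10 components of the transforming growth factor beta (TGF-beta) pathway measured in CD8+ T cells from mouse spleen: the ligand gene Tgfb1, the receptor genes Tgfbr1 and Tgfbr2, the signal transducers Smad2, Smad3 and Smad4, and the inhibitors Smad7, Ski, Skil and Pmepa1. They are 10 of the 49492 genes in the table, and all 10 had enough counts to enter the test. The set was chosen by the measured values of Pmepa1, whose response to octadecenoic acid differed between genotypes, so the values of Pmepa1 that rest on that acid or on untreated cells are given as a description, and counts of members are over the 9 others. The sequenced messenger RNA came from cells of Lckcre-PLPP1fl/fl mice, called KO, in which Cre recombinase driven by the T cell promoter of Lck is to delete the floxed lipid phosphatase gene Plpp1, and of PLPP1fl/fl mice, called WT, which carry the same floxed alleles without Cre. Cells of each genotype were given arachidonic acid (AA, a polyunsaturated fatty acid) or octadecenoic acid (OA, a monounsaturated one) or were left untreated. There were 4 libraries each of KO with AA, untreated KO, WT with AA, WT with OA and untreated WT, and 3 of KO with OA. The series is titled for the role of Plpp1 loss in ferroptosis and antitumor activity of these cells. Doses, treatment times and ages are not in the labels, which are also silent on whether each library is a separate animal; the tests then speak of the scatter among these libraries, which may be technical.

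TGF-beta is secreted in a latent form and, once freed, binds the receptor kinase TGFBR2, which recruits and activates TGFBR1. TGFBR1 phosphorylates SMAD2 and SMAD3, which join SMAD4 and enter the nucleus to regulate genes. SMAD7 blocks the receptor, SKI and SKIL (also called SnoN) hold SMAD complexes in a repressed state, and PMEPA1 binds SMAD2 and SMAD3 away from the receptor. Several of these inhibitors are themselves induced by TGF-beta and so form negative feedback. In CD8+ T cells the pathway is known for restraining effector genes such as granzymes and for promoting the tissue-residence integrin chain CD103, encoded by Itgae.

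Libraries held 39265131 to 58878203 counts. Markers of CD8+ T cells were at a summed 1773 to 2038 CPM (read counts scaled to a common library size with TMM factors) in KO libraries and 1960 to 2114 CPM in WT libraries, and the 3 neutrophil markers were at 0 in every library. Plpp1 itself had 15 to 37 counts per KO library and 17 to 39 per WT library. These low counts overlapped almost fully, so reads of the whole gene were not clearly reduced in KO. They therefore could not show that Plpp1 was deleted in the KO libraries. KO differed from WT in Xist, the X-inactivation transcript (2.98 to 5.35 CPM in KO, 784 to 884 CPM in WT). The share of receptor beta variable counts taken by Trbv12-1 differed too (3.27% to 4.32% in KO, 81.6% to 86.0% in WT). These differences cannot be told apart from the Plpp1 genotype in any comparison of KO with WT.

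Upstream sequences from RefSeq (GRCm38.p6) were at hand for 5 of the 10 members: Smad3, Ski, Tgfbr2, Tgfb1 and Tgfbr1. The other members, Smad7 among them, were outside the set of sequences used here. Their absence does not mean that RefSeq lacks them, and their motifs were not read. The upstream sequences of 3 members are shown 5′ to 3′ on the gene's strand over the 250 bases before the RefSeq start. Smad3 differed most between genotypes among the members other than Pmepa1. Ski had genotype differences of opposite signs with AA and in untreated cells. Tgfbr2 fell with OA in both genotypes. Capitals mark 2 motifs that SMAD proteins are known to bind, CAGAC or its reverse complement GTCTG, and GGCGC or its reverse complement GCGCC; a run of GGCGCC counts on each strand, and no match to CAGAC overlapped a match to GGCGC in these 3 windows.
Smad3, chr9:63757995-63758244, minus strand: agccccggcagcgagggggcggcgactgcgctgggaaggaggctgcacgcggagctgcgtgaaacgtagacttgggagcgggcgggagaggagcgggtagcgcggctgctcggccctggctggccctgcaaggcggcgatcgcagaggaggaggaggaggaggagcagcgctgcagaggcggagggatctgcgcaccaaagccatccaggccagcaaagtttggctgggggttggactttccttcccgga
Ski, chr4:155222536-155222785, minus strand: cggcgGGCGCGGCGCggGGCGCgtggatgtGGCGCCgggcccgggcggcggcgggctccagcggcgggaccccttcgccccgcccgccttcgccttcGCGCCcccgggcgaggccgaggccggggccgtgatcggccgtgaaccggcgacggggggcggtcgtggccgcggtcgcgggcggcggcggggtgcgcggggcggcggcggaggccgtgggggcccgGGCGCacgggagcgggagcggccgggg
Tgfbr2, chr9:116175364-116175613, minus strand: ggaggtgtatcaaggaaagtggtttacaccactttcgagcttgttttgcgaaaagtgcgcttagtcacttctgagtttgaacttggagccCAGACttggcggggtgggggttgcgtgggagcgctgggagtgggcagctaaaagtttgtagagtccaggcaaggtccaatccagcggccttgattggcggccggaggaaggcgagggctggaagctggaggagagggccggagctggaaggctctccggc
The Smad3 window held 0 matches to either motif. The Ski window held 7 matches to GGCGC and 0 to CAGAC. The Tgfbr2 window held 1 match to CAGAC and 0 to GGCGC. Of 32851 RefSeq promoters read over the same 250 bases, 42.2% held CAGAC and 32% held GGCGC on either strand. A match is a run of letters and not a measured binding site.

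Without fatty acid, the KO cells had less mRNA of most of these genes than WT cells. In such bulk samples, fewer cells of a type and less RNA per cell cannot be told apart. Of the 9 members other than Pmepa1, 7 were lower in KO (Tgfbr1, Tgfbr2, Smad3, Smad4, Smad7, Ski and Skil), 1 was higher (Smad2) and Tgfb1 did not pass the test (edgeR quasi-likelihood test, Benjamini-Hochberg adjusted p under 0.05). The background was high: 49.8% of the 18015 genes tested passed in that comparison, 25.6% being higher and 24.2% lower in KO. The median log2 difference over the 9 members was -0.20, against -0.00 over all genes tested. With AA, 4 of the 9 were lower in KO (Tgfb1, Tgfbr1, Tgfbr2 and Smad3) and 2 were higher (Smad2 and Ski), where 42.7% of genes tested passed in either direction, and the median was -0.03 against -0.01 over all genes. With OA, 4 were lower (the same 4 genes as with AA) and 2 were higher (Smad2 and Skil), where 43.1% passed, and the median was -0.13 against -0.02.

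Within KO cells, both fatty acids changed several of these genes. AA raised 5 of the 9 in KO (Smad3, Smad4, Smad7, Ski and Skil) and lowered Tgfbr1, where 27.6% of genes tested passed, 12.2% raised and 15.4% lowered. In WT, 0 of the 9 passed with AA under edgeR, 2 had an unadjusted p under 0.05 and DESeq2 called 1, and 0.416% of all genes tested passed. OA raised 4 of the 9 in KO (Smad3, Smad7, Ski and Skil) and lowered Tgfbr2, where 23.2% of genes passed, 10.5% raised and 12.7% lowered. In WT, OA lowered 1 of the 9, again Tgfbr2, where 3.73% of genes passed. The comparisons of AA and of OA with untreated cells share the same untreated libraries, so the likeness of the 2 acids' values in KO is no separate result.

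**Figure D1:**
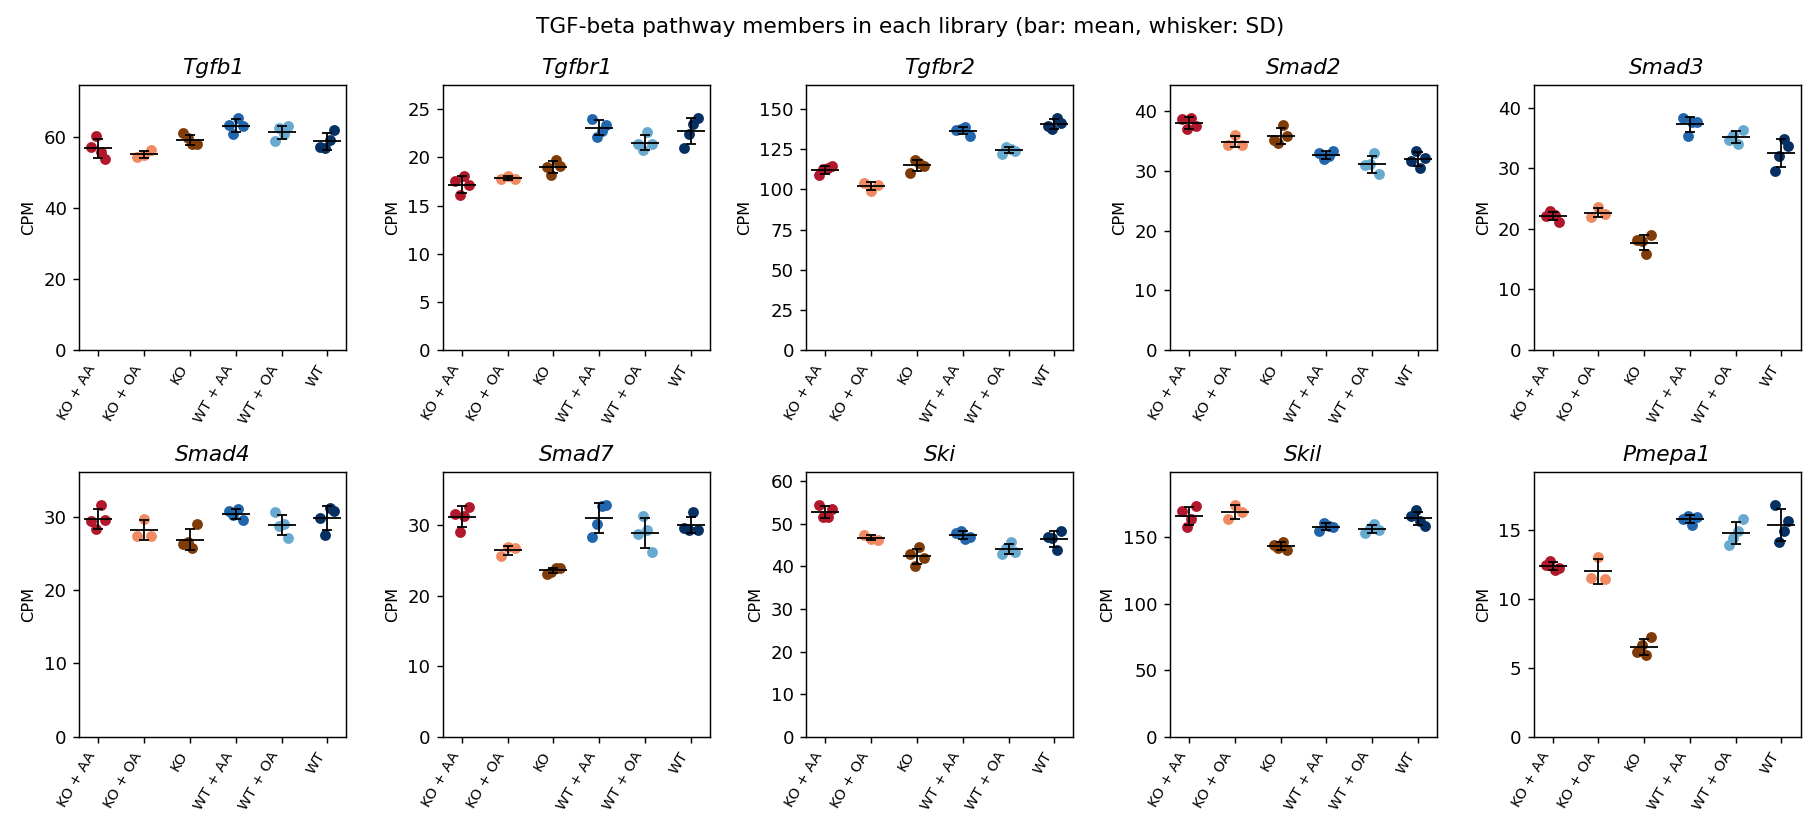
CPM (y axis, from 0) of each of the 10 genes in every library (points), by group on the x axis, with the group mean (bar) and SD (whisker); n = 4 per group, 3 in KO with OA. Smad3 was lower in every KO library than in any WT library, and Pmepa1 was lowest in the 4 untreated KO libraries, between 5.98 and 7.28 CPM.

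Tgfb1, the ligand gene on chromosome 7 (GRCm38, 25687002 to 25705077, plus strand), was lower in KO than in WT with either acid and did not pass the test in untreated cells. It averaged 56.9 ± 2.66 CPM in KO with AA, 55.3 ± 0.993 CPM in KO with OA and 59.4 ± 1.41 CPM in untreated KO (SD over the libraries of a group). In WT it averaged 63.3 ± 1.84 CPM with AA, 61.5 ± 1.89 CPM with OA and 58.9 ± 2.42 CPM untreated. KO was 1.11-fold lower than WT with AA (log2 -0.15, SE 0.0374, adjusted p = 0.00101) and 1.11-fold lower with OA (log2 -0.15, SE 0.0410, adjusted p = 0.00237), with no overlap of libraries in either case. Untreated, the log2 difference was 0.01 (95% interval -0.07 to 0.09, adjusted p = 0.833). Neither acid passed the test on its own within a genotype, with OA in KO at log2 -0.10 (adjusted p = 0.0647), which passed with the stricter filter (0.0452).

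The 2 receptor genes were lower in KO in all 3 conditions. Tgfbr2, which encodes the ligand-binding receptor kinase (chromosome 9, 116084293 to 116175360, minus strand), had 109, 112, 114 and 114 CPM in KO with AA, 104, 99.2 and 103 CPM in KO with OA, and 110.4, 118, 117 and 115 CPM in untreated KO. In WT it had 137, 137, 139 and 133 CPM with AA, 122, 127, 125 and 124 CPM with OA, and 139, 138, 144 and 142 CPM untreated. All KO libraries lay below all WT libraries, and the OA libraries were the lowest of each genotype. KO was 1.22-fold lower than WT in each condition, with log2 differences of -0.28 with AA (SE 0.0302, adjusted p = 1.02e-09), -0.29 with OA (SE 0.0331, adjusted p = 5.15e-09) and -0.29 untreated (SE 0.0303, adjusted p = 3.47e-10). OA lowered Tgfbr2 1.13-fold in KO (log2 -0.17, SE 0.0331, adjusted p = 0.000133) and 1.13-fold in WT (log2 -0.18, SE 0.0302, adjusted p = 0.000185). AA did not pass the test in KO (log2 -0.04, adjusted p = 0.435) or in WT (log2 -0.04, adjusted p = 0.778). Set directly against OA, AA left Tgfbr2 1.10-fold higher in KO (log2 0.14, SE 0.0330, adjusted p = 0.00336) and in WT (log2 0.13, SE 0.0302, adjusted p = 0.00772).

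Tgfbr1, which encodes the signalling receptor kinase (chromosome 4, 47353222 to 47414931, plus strand), averaged 17.2 ± 0.849 CPM in KO with AA, 17.9 ± 0.174 CPM in KO with OA and 19 ± 0.633 CPM in untreated KO. In WT it averaged 23.1 ± 0.780 CPM with AA, 21.6 ± 0.753 CPM with OA and 22.8 ± 1.34 CPM untreated. Libraries of the 2 genotypes did not overlap in any condition. The log2 difference of KO from WT was -0.43 with AA (SE 0.0492, adjusted p = 5.79e-09), -0.27 with OA (SE 0.0542, adjusted p = 8.73e-05) and -0.26 untreated (SE 0.0498, adjusted p = 3.84e-05). AA lowered Tgfbr1 1.11-fold in KO (log2 -0.15, SE 0.0504, adjusted p = 0.0265), a call that was lost without KO with AA replicate 1 (adjusted p = 0.0512) or 2 (0.184), without untreated KO replicate 3 (0.0882) or 4 (0.0531), with no filter on low counts (0.109) and with only the groups compared in the fit (0.0926). Per kilobase of gene length, Tgfbr2 mRNA stood at 14.1 CPM per kb in untreated KO and 17.2 in untreated WT, and Tgfbr1 mRNA at 2.91 CPM per kb in untreated KO and 3.48 in untreated WT.

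Among the transducers, Smad3 was far lower in KO while Smad2 was slightly higher. Smad3 (chromosome 9, 63646767 to 63757994, minus strand), the receptor-activated SMAD that contacts DNA directly, had 22.0, 22.9, 22.3 and 21.2 CPM in KO with AA, 22.0, 23.5 and 22.4 CPM in KO with OA, and 18.1, 18.1, 15.9 and 18.9 CPM in untreated KO. The WT libraries had 38.3, 35.3, 37.7 and 37.6 CPM with AA, 34.7, 35.5, 34.0 and 36.2 CPM with OA, and 29.6, 32.0, 34.8 and 33.6 CPM untreated. The highest KO library, at 23.5 CPM, was below the lowest WT library, at 29.6 CPM. KO was 1.68-fold lower than WT with AA (log2 -0.75, SE 0.050, adjusted p = 5.86e-15), 1.55-fold lower with OA (log2 -0.63, SE 0.0552, adjusted p = 8.32e-12) and 1.84-fold lower untreated (log2 -0.88, SE 0.0523, adjusted p = 1.81e-16). Both acids raised Smad3 in KO, AA 1.25-fold (log2 0.32, SE 0.0532, adjusted p = 1.23e-05) and OA 1.28-fold (log2 0.36, SE 0.0575, adjusted p = 1.13e-05), and the untreated KO libraries did not overlap those with either acid. In WT, the log2 difference with AA was 0.20 (SE 0.0490, adjusted p = 0.0655), and it passed with DESeq2 (adjusted p = 0.0175), with no filter (0.0340) and without untreated WT replicate 3 (0.0308). With OA in WT it was 0.11 (SE 0.0494, adjusted p = 0.246). The difference of the AA effect between genotypes did not pass its test (log2 0.13, 95% interval -0.02 to 0.27, adjusted p = 0.289).

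Smad2 (chromosome 18, 76241580 to 76305731, plus strand), the second receptor-activated SMAD of the pathway, averaged 38.1 ± 0.939 CPM in KO with AA, 34.9 ± 0.950 CPM in KO with OA and 35.8 ± 1.31 CPM in untreated KO. In WT it averaged 32.7 ± 0.624 CPM with AA, 31.2 ± 1.42 CPM with OA and 31.9 ± 1.16 CPM untreated. In each condition all KO libraries were above all WT libraries. The log2 difference of KO from WT was 0.22 with AA (SE 0.0411, adjusted p = 3.82e-05), 0.16 with OA (SE 0.0451, adjusted p = 0.00301) and 0.16 untreated (SE 0.0418, adjusted p = 0.00115). Neither acid passed the test against untreated cells in either genotype. Per unit of gene length, the ratio of Smad3 to Smad2 counts was 0.372 ± 0.0163 in KO with AA, 0.416 ± 0.00521 in KO with OA and 0.318 ± 0.0318 in untreated KO (SD). The same ratio was 0.729 ± 0.0168 in WT with AA, 0.723 ± 0.0513 in WT with OA and 0.653 ± 0.0603 in untreated WT. It is given as a description with no test.

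Smad4 (chromosome 18, 73639009 to 73703780, minus strand), the partner shared by all activated SMADs, varied little. It averaged 29.7 ± 1.37 CPM in KO with AA, 28.2 ± 1.35 CPM in KO with OA and 26.9 ± 1.43 CPM in untreated KO, against 30.4 ± 0.685 CPM in WT with AA, 28.9 ± 1.42 CPM in WT with OA and 29.8 ± 1.70 CPM in untreated WT. Untreated KO was 1.11-fold lower than untreated WT (log2 -0.15, SE 0.0498, adjusted p = 0.0123), with overlapping libraries. AA raised it 1.11-fold in KO (log2 0.15, SE 0.0495, adjusted p = 0.0245), also with overlap, and that call was lost without untreated KO replicate 1 (adjusted p = 0.0650), 2 (0.0550) or 3 (0.0848) and without KO with AA replicate 3 (0.111).

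The inhibitors Smad7, Ski and Skil shared a pattern. Each was lower in untreated KO than in untreated WT, each was raised by both acids in KO, and none passed the test with either acid in WT. The transducer Smad3 met the same criteria, so the pattern was not particular to the inhibitors. Taken singly, 24.2% of genes tested were lower in untreated KO, and in KO 12.2% were raised by AA and 10.5% by OA. The share of all genes tested that met these criteria together was not counted, so the pattern is not shown to be particular to this pathway. The comparison of untreated genotypes and both acid comparisons in KO share the untreated KO libraries, so they are not separate results. Smad7 (chromosome 18, 75367529 to 75395935, plus strand), which blocks the receptor and brings ubiquitin ligases to it, had 31.7, 29.1, 31.4 and 32.7 CPM in KO with AA, 25.7, 26.9 and 26.7 CPM in KO with OA, and 23.2, 23.4, 24 and 23.9 CPM in untreated KO. WT cells had 28.3, 30.2, 32.7 and 32.9 CPM with AA, 28.8, 31.3, 29.4 and 26.2 CPM with OA, and 29.6, 29.4, 31.8 and 29.4 CPM untreated. The 3 conditions of KO did not overlap one another, while those of WT did. Untreated KO was 1.27-fold below untreated WT (log2 -0.35, SE 0.0526, adjusted p = 8.32e-07), whereas the 2 genotypes overlapped with AA (log2 0.01, 95% interval -0.10 to 0.11, adjusted p = 0.937). AA raised Smad7 1.32-fold in KO (log2 0.40, SE 0.0522, adjusted p = 1.84e-07) and left it at log2 0.05 in WT (SE 0.0511, adjusted p = 0.888), and this difference between genotypes passed its own test (log2 0.35, SE 0.0730, adjusted p = 0.000750). In KO, Smad7 was 1.18-fold higher with AA than with OA (log2 0.24, SE 0.0557, adjusted p = 0.00282).

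The effect of OA on Smad7 was less secure. OA raised it 1.12-fold in KO (log2 0.16, SE 0.0571, adjusted p = 0.0349), and that call was lost without untreated KO replicate 1 (adjusted p = 0.0737), 2 (0.0673) or 4 (0.0506) and without KO with OA replicate 2 (0.122) or 3 (0.0977). With OA, the difference of KO from WT was -0.13 on the log2 scale (SE 0.0563, adjusted p = 0.0619), and it passed with upper quartile factors (0.0347), with a stricter filter (0.0307), with only the groups compared (0.0429) and without WT with OA replicate 4 (0.00931).

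Ski (chromosome 4, 155154075 to 155222592, minus strand), whose product recruits co-repressors to SMAD complexes, had 54.5, 51.6, 51.6 and 53.4 CPM in KO with AA, 47.4, 46.5 and 46.2 CPM in KO with OA, and 42.9, 40.2, 44.5 and 42.1 CPM in untreated KO. In WT it had 47.7, 48.4, 46.5 and 46.8 CPM with AA, 43.0, 44.2, 45.6 and 43.5 CPM with OA, and 46.8, 46.7, 43.8 and 48.4 CPM untreated. The KO libraries with AA were the highest of all 23, and the KO conditions did not overlap one another. KO was 1.11-fold higher than WT with AA (log2 0.16, SE 0.0374, adjusted p = 0.000784) and 1.10-fold lower untreated (log2 -0.13, SE 0.0383, adjusted p = 0.00436), with overlap in the untreated comparison. The AA effect, log2 0.32 in KO (SE 0.0379, adjusted p = 3.76e-08) and 0.03 in WT (SE 0.0378, adjusted p = 0.926), differed between genotypes by 0.29 (SE 0.0535, adjusted p = 0.000214). OA raised Ski 1.10-fold in KO (log2 0.14, SE 0.0413, adjusted p = 0.0114), a call lost without KO with OA replicate 1 (adjusted p = 0.0543) or untreated KO replicate 2 (0.0558). AA gave 1.13-fold more Ski than OA in KO (log2 0.18, SE 0.0406, adjusted p = 0.00254). In WT the difference of AA from OA was 0.10 (95% interval 0.03 to 0.18, adjusted p = 0.157).

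Skil (chromosome 3, 31095058 to 31122577, plus strand), the relative of Ski that encodes SnoN, had 169, 158, 164 and 173 CPM in KO with AA, 164, 174 and 169 CPM in KO with OA, and 144, 142, 147 and 140.3 CPM in untreated KO. The WT libraries had 154, 161, 158 and 157 CPM with AA, 153, 157, 159.9 and 155 CPM with OA, and 166, 170.1, 162 and 159 CPM untreated. The untreated KO libraries were the lowest of all 23. AA raised Skil 1.16-fold in KO (log2 0.21, SE 0.0325, adjusted p = 3.34e-06) and OA raised it 1.18-fold (log2 0.24, SE 0.0350, adjusted p = 2.52e-06). In WT the log2 differences were -0.06 with AA (adjusted p = 0.686) and -0.07 with OA (adjusted p = 0.249), and the AA effect differed between genotypes by 0.27 (SE 0.0458, adjusted p = 5.93e-05). KO was 1.15-fold lower than WT untreated (log2 -0.20, SE 0.0325, adjusted p = 3.62e-06). With OA, KO was 1.08-fold higher (log2 0.11, SE 0.0349, adjusted p = 0.00731), which was lost without KO with OA replicate 2 (0.0633). With AA the difference of 0.07 (SE 0.0323, adjusted p = 0.0610) passed with DESeq2 (0.0391) and without KO with AA replicate 2 (0.0131).

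**Figure D2:**
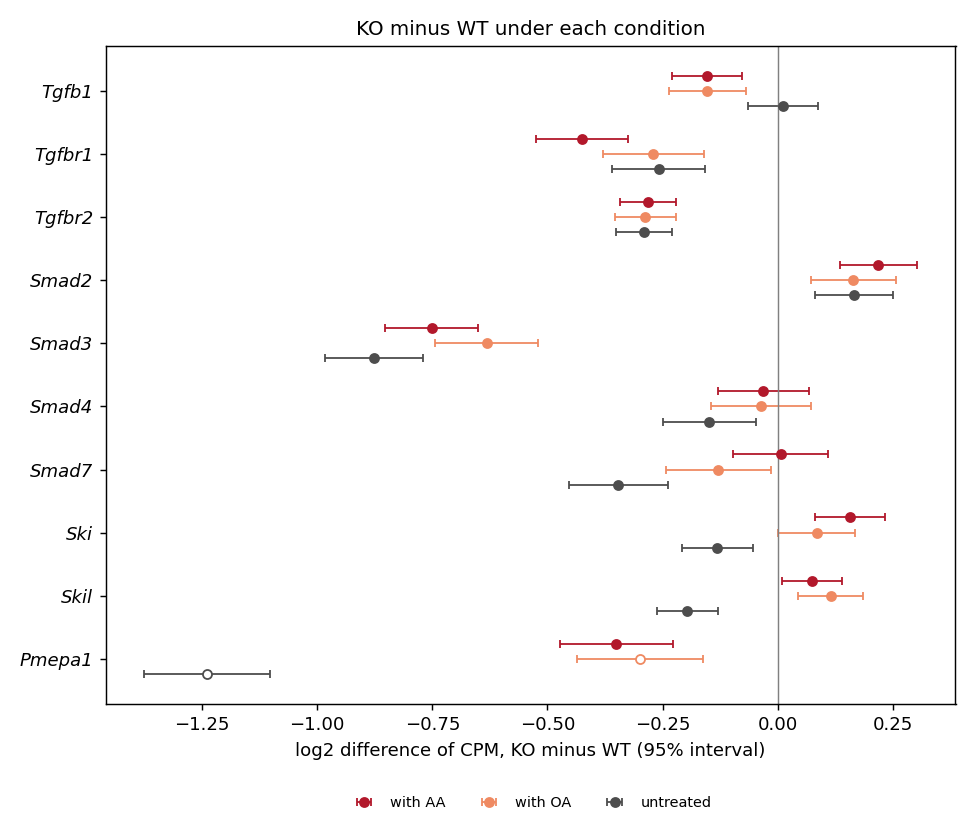
Log2 difference of CPM, KO minus WT (x axis), of each gene (y axis) with AA, with OA and untreated; points are the fitted differences, bars their 95% intervals, and open points were not tested. Smad3 stood between -0.88 and -0.63 in all 3 conditions, while Smad7, Ski and Skil were below 0 untreated and at or above 0 with AA.

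Pmepa1 (chromosome 2, 173224458 to 173276533, minus strand), whose product keeps SMAD2 and SMAD3 from the receptor, had the widest range of the 10 genes relative to its level. It had 12.5, 12.7, 12.1 and 12.3 CPM in KO with AA, 11.5, 13.1 and 11.5 CPM in KO with OA, and 6.18, 6.64, 5.98 and 7.28 CPM in untreated KO. WT cells had 15.8, 16, 15.4 and 16 CPM with AA, 14, 14.5, 14.9 and 15.8 CPM with OA, and 16.9, 14.1, 14.9 and 15.6 CPM untreated. In the order of group means, untreated KO (6.52 ± 0.577 CPM) was lowest, followed by KO with OA (12 ± 0.897), KO with AA (12.4 ± 0.280), WT with OA (14.8 ± 0.781), untreated WT (15.4 ± 1.16) and WT with AA (15.8 ± 0.274). The 2 treated KO groups overlapped each other, as did the 3 WT groups, and every KO library was below every WT library. The log2 difference of KO from WT was -0.30 with OA and -1.24 untreated (a 2.36-fold lower level), and OA changed Pmepa1 by 0.89 in KO and by -0.06 in WT, values that chose the set and carry no test. The AA libraries were not used in that choice. With AA, KO was 1.28-fold lower than WT (log2 -0.35, SE 0.0606, adjusted p = 1.10e-05). AA against untreated cells gave 0.93 in KO (a 1.91-fold higher level) and 0.04 in WT, also without a test because the untreated libraries were used.

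The summed level of 5 megakaryocyte and platelet markers, 3 of which passed the filter, was, like Pmepa1, lowest in untreated KO and lower in KO than in WT: 5.66 to 7.35 CPM in KO with AA, 5.01 to 6.44 in KO with OA, 3.42 to 4.48 in untreated KO, 9.72 to 10.6 in WT with AA, 8.48 to 10.1 in untreated WT and 9.69 to 11.7 CPM in the WT libraries given OA. Most of it was Itga2b, whose group means were 5.31 CPM in KO with AA, 5.19 in KO with OA and 3.43 in untreated KO, against 8.20 in WT with AA, 8.52 in WT with OA and 7.24 in untreated WT. Pf4, a platelet chemokine gene, ran in the same direction at 0.712, 0.542 and 0.378 CPM in these KO groups, against 1.45, 1.38 and 1.25 CPM in the WT groups. Ppbp averaged at most 0.399 CPM, Gp9 at most 0.107 CPM and Gp1bb at most 0.0359 CPM in any group. None of these 3 was lowest in untreated KO. Ppbp averaged 0.209 CPM in untreated KO and 0.0864 CPM in KO with OA. Gp9 averaged 0.0535 CPM in untreated KO and 0.0236 CPM in KO with AA. Both had lower means in KO than in WT in each condition, while Gp1bb averaged 0.0239 CPM in untreated KO and 0.0227 CPM in untreated WT. The summed level of 3 CD4+ T cell markers was 21.3 to 24.1 CPM in KO with AA, 19.1 to 20.5 in KO with OA and 20.7 to 23.8 in untreated KO, against 28.0 to 30.9 in WT with AA, 26.8 to 29.0 in WT with OA and 27.5 to 29.8 CPM in untreated WT. Of these, Foxp3, the regulatory T cell factor, was lower in KO (13.2 CPM in untreated KO and 20.8 CPM in untreated WT). Cd4 stood at 2.27 CPM in untreated KO and 2.52 CPM in untreated WT, and Zbtb7b at 6.97 CPM in untreated KO and 5.54 CPM in untreated WT. The 6 CD8+ T cell markers summed to 1773 to 1883 CPM in KO with AA and 1803 to 1881 CPM in KO with OA, below the 1976 to 2038 CPM of untreated KO. Not every marker ran with the sum. Cd8b1 averaged 442 CPM in KO with AA, 438 with OA and 539 untreated. In the same order of groups, Cd3d averaged 246, 239 and 240 CPM and Cd3g 353, 387 and 368 CPM. The summed level of 4 stromal markers, 2 of which passed the filter, was 0.214 to 0.518 CPM in KO with AA and 0.564 to 1.28 CPM in WT with AA. It was 0.272 to 0.358 CPM in KO with OA and 0.938 to 1.23 CPM in WT with OA. Untreated, it was 0.260 to 0.562 CPM in KO and 0.840 to 1.42 CPM in WT. Col3a1 averaged at most 0.0280 CPM and Dcn at most 0.0231 CPM in any group. The part of these markers in the differences above and below was not tested.

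**Figure D3:**
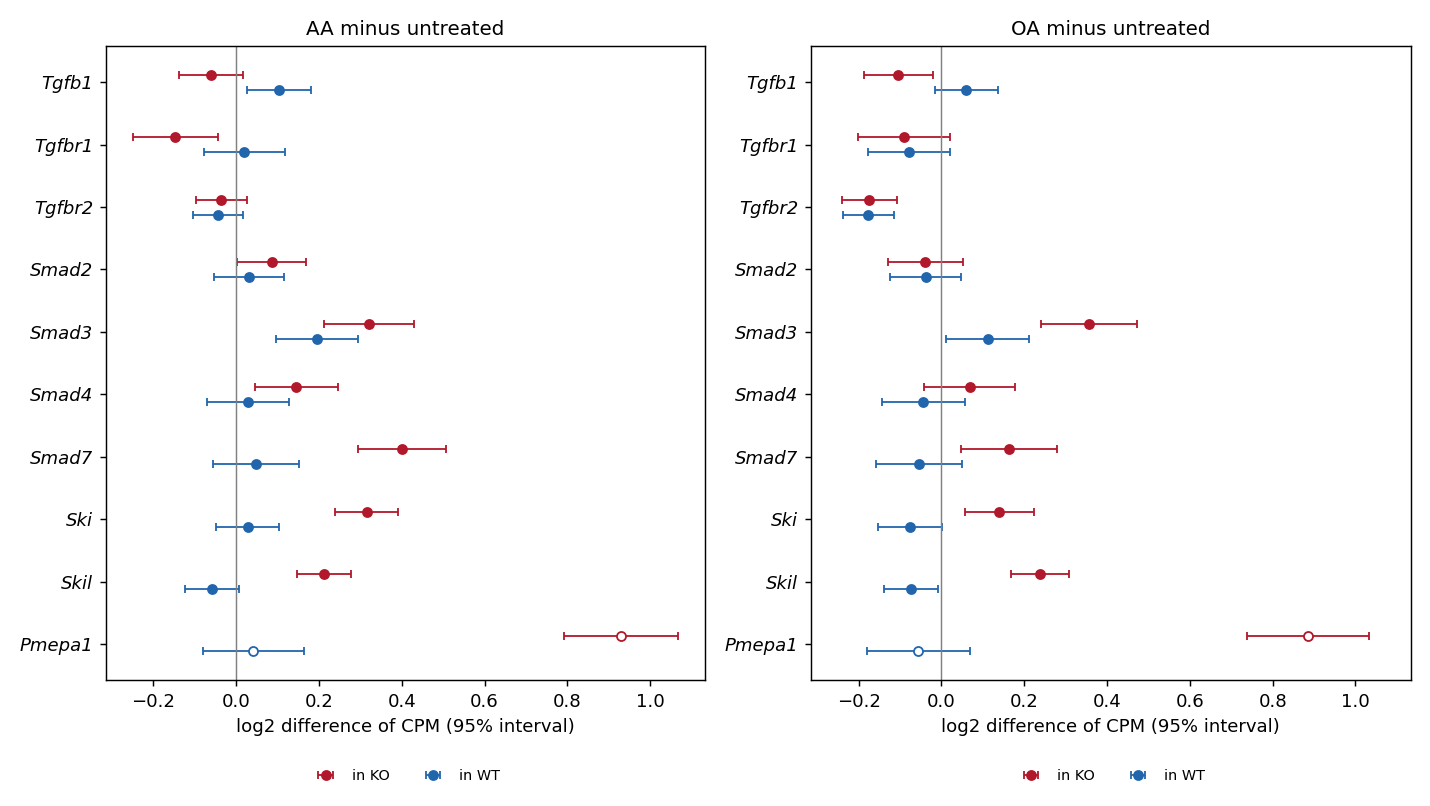
Log2 difference of CPM of each gene (y axis) with AA minus untreated (left) and with OA minus untreated (right), in KO and in WT; points are fitted differences, bars their 95% intervals, and open points were not tested. Smad7, Ski and Skil lay at 0.40, 0.32 and 0.21 with AA in KO, against 0.05, 0.03 and -0.06 in WT.

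The difference of the AA effect between KO and WT passed for 4 of the 9 members, Smad7, Ski and Skil upward and Tgfb1 downward, where 13.9% of genes tested passed, 5.97% upward and 7.98% downward. For Tgfb1 the difference was -0.16 on the log2 scale (SE 0.0532, adjusted p = 0.0333) and was lost with no filter (adjusted p = 0.0991), with only the groups compared (0.0929), with upper quartile factors (0.0680) and without KO with AA replicate 1, 3 or 4, untreated KO replicate 1 or 2, WT with AA replicate 1, 3 or 4, or untreated WT replicate 1 or 2, where it reached 0.145. For OA the same differences, given without a test because that contrast chose the set, were 0.94 for Pmepa1, 0.31 for Skil, 0.24 for Smad3, 0.22 for Smad7, 0.22 for Ski, 0.11 for Smad4 and -0.16 for Tgfb1, and lay between -0.01 and 0.00 for Tgfbr1, Tgfbr2 and Smad2. Beside them, 12.5% of all genes tested differed in that contrast. AA set against OA gave 3 members higher with AA in KO (Tgfbr2, Smad7 and Ski), where 14% of genes passed, and 1 in WT (Tgfbr2), where 2.95% passed. Smad2 with AA against OA in KO stood at 0.12 (SE 0.0444, adjusted p = 0.0569) and passed with DESeq2 (0.0327), with the stricter filter (0.0371) and without KO with AA replicate 2 (0.0398).

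The rest of the pathway was read from 7 lists. In untreated cells, where 24.2% of all genes tested were lower in KO and 25.6% higher, 4 of the 12 tested genes of ligands and their activation were lower and 0 were higher. Of 10 other receptors, 6 were lower and 0 were higher. Eng, a co-receptor, averaged 7.16 ± 0.537 CPM in untreated KO and 11.1 ± 0.979 CPM in untreated WT (log2 -0.63, SE 0.0902, adjusted p = 2.71e-07). Acvr1b, an activin receptor kinase, was at log2 -0.35 (adjusted p = 0.000185) and the co-receptor Tgfbr3 at -0.22 (adjusted p = 0.00324). Of 5 other SMADs and anchors, 3 were lower, among them Smad5, a transducer of bone morphogenetic proteins (log2 -0.39, adjusted p = 1.62e-08), and Zfyve9, the membrane anchor that presents SMADs to the receptor (log2 -0.56, adjusted p = 4.28e-05). The median log2 differences of these 3 lists were -0.19, -0.26 and -0.25, against -0.00 over all genes tested. The counts of lower genes in these lists were 4 to 5 for the ligands, 4 to 6 for the receptors and 3 for the SMADs and anchors when single libraries were left out. With AA, 6 of the 12, 4 of the 10 and 1 of the 5 were lower in KO, in the same order of lists. With OA, these counts were 7, 4 and 1. Only the list of SMADs and anchors had a gene higher in KO, 1 with either acid. In either direction, 42.7% of genes tested passed with AA and 43.1% with OA.

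Tgfb3, a second ligand gene of the family, had the smallest adjusted p of the ligand list with either acid in KO. It averaged 0.657 ± 0.207 CPM in KO with AA, 0.625 ± 0.170 CPM in KO with OA and 1.32 ± 0.0890 CPM in untreated KO, against 2.32 ± 0.153 CPM in WT with AA, 2.23 ± 0.373 CPM in WT with OA and 2.27 ± 0.461 CPM in untreated WT. AA lowered it in KO (log2 -1.02, SE 0.208, adjusted p = 0.000220), as did OA (log2 -1.06, SE 0.232, adjusted p = 0.000721). In WT the log2 differences were 0.02 with AA (adjusted p = 0.988) and -0.03 with OA (adjusted p = 0.958). The AA effect differed between genotypes (log2 -1.04, SE 0.267, adjusted p = 0.00610). Thbs1, which encodes an activator of latent TGF-beta, averaged 1.90 ± 0.152 CPM in untreated KO and 2.93 ± 0.214 CPM in untreated WT (log2 -0.62, adjusted p = 0.000144). Furin, the protease that cleaves the TGF-beta precursor, averaged 22.6 ± 1.04 CPM in untreated KO and 28 ± 2.73 CPM in untreated WT (log2 -0.31, adjusted p = 4.28e-05), and in KO it was higher with AA than with OA (log2 0.40, adjusted p = 3.74e-05). Hgs, an endosomal partner of the SMAD anchors, was at log2 0.02 in untreated KO against WT (adjusted p = 0.633) and was raised by AA in KO (log2 0.20, adjusted p = 0.000124).

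Of 18 genes of ubiquitin and phosphatase control, 7 were higher and 4 lower in untreated KO, beside 25.6% higher and 24.2% lower of all genes tested. The median log2 difference of the list was 0.01 against -0.00 over all genes. Usp15, a deubiquitinase of receptor and SMADs, was higher (log2 0.32, adjusted p = 2.67e-10), as was Fkbp1a, which encodes the FKBP12 protein that holds TGFBR1 inactive (log2 0.41, adjusted p = 2.21e-08), while Rnf111, a ligase that degrades SKI, SKIL and SMAD7, was lower (log2 -0.24, adjusted p = 3.26e-06). The smallest adjusted p of the list was that of Ldlrad4 (chromosome 18, 67933257 to 68255549, plus strand), a relative of Pmepa1 that also inhibits SMAD2 and SMAD3 activation. Ldlrad4 had 15.5, 15.6, 14.9 and 16.3 CPM in KO with AA, 14.8, 14.5 and 15.4 CPM in KO with OA, and 6.76, 6.38, 8.57 and 7.18 CPM in untreated KO. In WT it had 14.9, 15.4, 13.5 and 15.7 CPM with AA, 14.9, 15.6, 16.6 and 15.8 CPM with OA, and 12.4, 14, 13.9 and 15.8 CPM untreated. The untreated KO libraries stood alone below all others, and with either acid KO and WT overlapped. AA raised Ldlrad4 in KO (log2 1.11, SE 0.0745, adjusted p = 4.69e-14) and so did OA (log2 1.04, SE 0.0802, adjusted p = 2.95e-12), against 0.08 with AA (adjusted p = 0.835) and 0.16 with OA (adjusted p = 0.218) in WT. The difference of KO from WT was -0.95 untreated (SE 0.0757, adjusted p = 4.12e-13), 0.07 with AA (SE 0.0680, adjusted p = 0.443) and -0.08 with OA (adjusted p = 0.432).

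Of 12 nuclear partners, 3 were higher and 6 lower in untreated KO, beside the same 25.6% and 24.2% of all genes, and the median was -0.11. The lower ones included Runx3, a transcription factor of CD8+ T cells (127 ± 8.25 CPM in untreated KO and 162 ± 7.66 CPM in untreated WT, log2 -0.35, adjusted p = 6.71e-07) and its relative Runx1 (3.69 ± 0.507 CPM in untreated KO and 5.39 ± 0.383 CPM in untreated WT, log2 -0.54, adjusted p = 3.75e-05). The co-repressor Ctbp1 was higher in untreated KO (89.5 ± 3.34 CPM, against 73.7 ± 2.40 CPM in untreated WT, log2 0.28, adjusted p = 6.40e-07) and fell with AA in KO (log2 -0.16, adjusted p = 0.00323). Tgif1, a co-repressor of SMADs on chromosome 17, had 23.9, 21.4, 19.7 and 21.1 CPM in KO with AA, 18.0, 17.6 and 18.0 CPM in KO with OA, and 13.1, 13.9, 12.3 and 12.6 CPM in untreated KO. The WT libraries had 18.4, 18.0, 16.2 and 16.4 CPM with AA, 14.7, 16.7, 18.0 and 16.7 CPM with OA, and 15.9, 14.9, 15.3 and 14.8 CPM untreated. The KO libraries were the highest of all with AA and the lowest of all untreated. AA raised it 0.73 on the log2 scale in KO (SE 0.0617, adjusted p = 1.29e-11) and OA 0.46 (SE 0.0674, adjusted p = 2.28e-06). The AA effect was larger in KO than in WT by 0.55 (SE 0.0870, adjusted p = 2.20e-05).

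Of 12 tested genes that TGF-beta is known to raise in T cells, 3 were higher and 5 lower in untreated KO, beside 25.6% higher and 24.2% lower of all genes, with a median log2 difference of 0.03. Itgae, which encodes CD103, averaged 86.4 ± 1.10 CPM in untreated KO and 405 ± 4.46 CPM in untreated WT (log2 -2.23, SE 0.0299, adjusted p = 2.57e-36). Gadd45b, a stress and SMAD target gene, was also lower (7.25 ± 0.404 CPM in untreated KO and 12.1 ± 0.289 CPM in untreated WT, log2 -0.74, adjusted p = 3.33e-10). Nt5e, the gene of the ectonucleotidase CD73, was higher (14.2 ± 0.568 CPM in untreated KO and 4.72 ± 0.359 CPM in untreated WT, log2 1.59, adjusted p = 3.31e-20), as was the cell cycle inhibitor Cdkn1a (log2 1.58, adjusted p = 1.90e-16). Of 12 tested genes that TGF-beta is known to lower, 6 were higher and 2 lower, beside the same shares of all genes, with a median log2 difference of 0.19 against -0.00 over all genes tested. Gzmb, a cytotoxic granule protease, averaged 422 ± 11.9 CPM in untreated KO and 198 ± 4.42 CPM in untreated WT (log2 1.09, adjusted p = 6.17e-26), and Eomes, an effector transcription factor, 39.7 ± 1.25 CPM in untreated KO and 19.3 ± 1.20 CPM in untreated WT (log2 1.04, adjusted p = 4.86e-19). Gzma, a related protease, ran the other way (log2 -2.43, adjusted p = 1.53e-18). The direction of this list was not the same in every condition. With AA, 3 of its 12 genes were higher and 5 lower in KO than in WT, with a median of -0.09. There 42.7% of genes tested passed in either direction, and the median over all genes was -0.01. With OA, 6 were higher and 3 lower, with a median of 0.16, where 43.1% passed and the median over all genes was -0.02. The summed level of 3 natural killer cell markers, 2 of which passed the filter, was 0.795 to 1.32 CPM in KO with AA, 0.758 to 1.28 in KO with OA and 1.32 to 1.55 in untreated KO, against 0.322 to 0.597 in WT with AA, 0.231 to 0.878 in WT with OA and 0.428 to 0.613 CPM in untreated WT. Ncr1, their defining receptor gene, averaged 0.209 CPM in untreated KO and 0.0605 CPM in untreated WT. The part of such cells in the values of Gzmb, Eomes and Gzma was not tested.

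With AA in KO, 6 of the 12 tested genes of the lowered list fell and 1 was higher, S1pr1 (log2 0.08, adjusted p = 0.0481), a call lost with no filter, with only the groups compared, with the replicate number as a block, without any single untreated KO library and without KO with AA replicate 2 or 4. Beside them, 15.4% of all genes tested fell and 12.2% rose, and the median of the list was -0.45 against -0.01 over all genes. Gzmb fell to 315 ± 9.77 CPM (log2 -0.42, SE 0.0308, adjusted p = 3.41e-13) and Eomes to 26.5 ± 1.16 CPM (log2 -0.58, SE 0.0490, adjusted p = 1.29e-11). Of the 12 of the raised list, 3 were higher and 3 lower with AA in KO, with a median of 0.02, Gadd45b at 0.41 (adjusted p = 0.000104) and Itgae at 0.15 (adjusted p = 0.000162) among the higher. Entpd1, the gene of the ectonucleotidase CD39, was among the lower, at 4.26 ± 0.210 CPM in KO with AA and 6.31 ± 0.578 CPM in untreated KO (log2 -0.57, adjusted p = 1.05e-05). With OA in KO, where 10.5% of all genes rose and 12.7% fell, the raised list had 3 higher and 4 lower of 12, the lower count being 1 without KO with OA replicate 2 and 2 without untreated KO replicate 3, and Itgae fell to 70.6 ± 2.32 CPM (log2 -0.29, SE 0.0325, adjusted p = 1.24e-08). The lowered list had 3 higher and 3 lower with OA in KO, the higher count being 1 without KO with OA replicate 1.

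The 5 genes whose 6 group means ran closest to those of Pmepa1, out of 10120 eligible genes, were Dgat1, Tmem140, Wdr66, Acrbp and Ncald, at a root mean square difference of 0.125 to 0.145 in centred log2 CPM. Dgat1, a triglyceride synthesis enzyme, averaged 12.7 ± 0.738 CPM in KO with AA, 12.7 ± 0.303 CPM in KO with OA and 7.24 ± 0.815 CPM in untreated KO, against 14.9 ± 0.753 CPM in WT with AA, 13.3 ± 0.377 CPM in WT with OA and 13.4 ± 0.914 CPM in untreated WT. By the same measure Ldlrad4 ranked 23 (0.179), Gadd45b 32 (0.195), Smad3 52 (0.207) and Smad7 776 (0.319), and the other members ranked 2110 or lower. The measure is over 6 group means only and is a description.

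**Figure D4:**
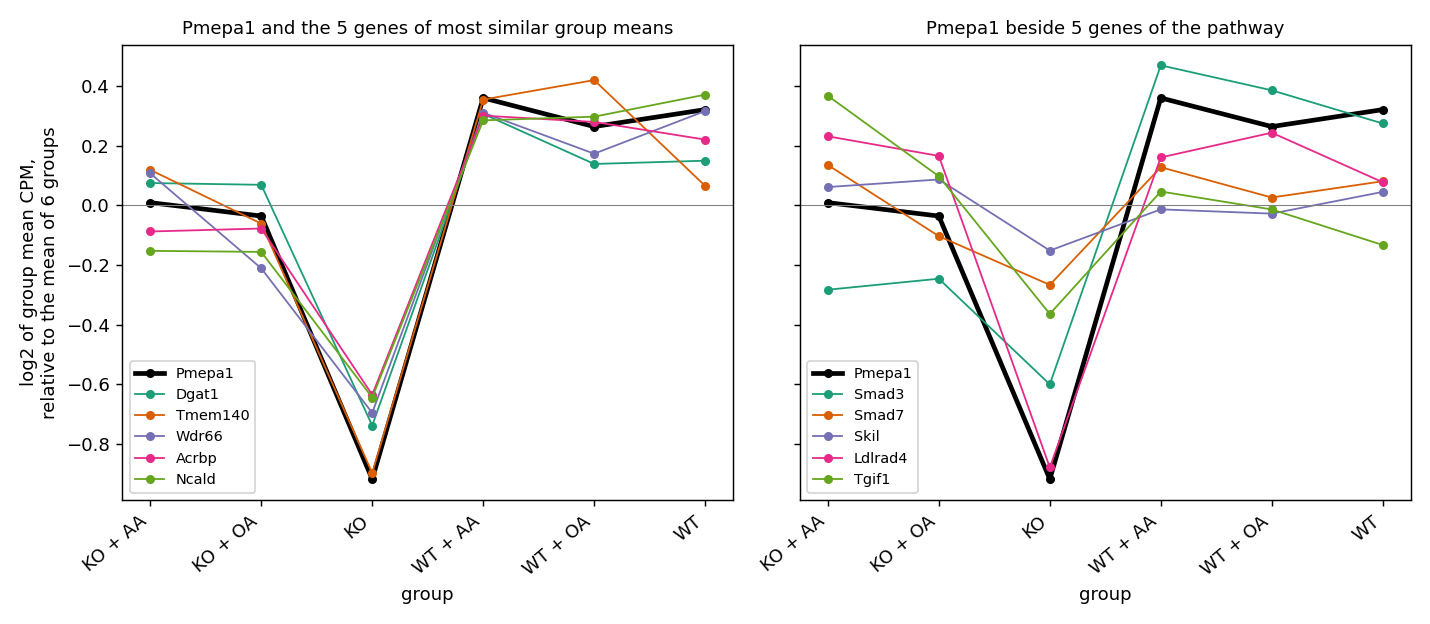
Log2 of the group mean CPM relative to the mean of the 6 groups (y axis) by group (x axis), for Pmepa1 (thick line) with the 5 genes of most similar pattern (left) and with Smad3, Smad7, Skil, Ldlrad4 and Tgif1 (right). Pmepa1 and Ldlrad4 were both lowest in untreated KO; with the acids Ldlrad4 reached the WT level and Pmepa1 stayed below it.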

How the data were processed

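The authors deposited raw read counts per gene for 23 libraries in a table of 49492 genes. The submitters' processing notes name Trimmomatic 0.36, featureCounts (Subread 1.5.1) and GRCm38. The aligner and the strand setting were not given in the sources used here. Columns were matched to samples by name. Between 66.5% and 70.7% of the counts from 1 to 19 were even in each library, so reads may have been counted once per mate.

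Genes were kept with filterByExpr (minimum count 10, minimum total 15), which left 18015 genes with 99.964% of all counts. edgeR 4.0.16 in R 4.3.3 fitted 1 mean per group to all 23 libraries, with TMM factors of 0.961 to 1.034, 17 residual degrees of freedom and a common biological coefficient of variation of 4.97%. The quasi-likelihood test was run for 11 comparisons, with Benjamini-Hochberg adjustment over all 18015 genes and a threshold of 0.05. CPM values are TMM-scaled, and intervals are 95%. Alternatives were a fit of the compared groups alone, a block for the replicate number, each library left out, DESeq2 1.42.0, upper quartile or RLE scaling, all genes unfiltered, and a filter of 1 CPM in at least 4 libraries. The procedure was also run on simulated counts, which were drawn without the excess of even values seen in the real counts. The outcome of that run is not given here and is used for no result.

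The members and gene lists were chosen with earlier results of these data known. Named genes were the 10 members, up to 3 genes with the smallest adjusted p per list and comparison, and the 5 genes most like Pmepa1 with a mean log2 CPM of at least 1. The list rule took 60 genes, of which 45 passed the test in a comparison it took them from. Of these, 25 are described, a choice made after their values were seen. The 20 not described are Acvrl1, Bhlhe40, Cdc25a, Ctla4, Gdf11, Hdac1, Inhba, Lrrc32, Myc, Nedd4l, Nrros, S1pr1, Smurf1, Smurf2, Strap, Tbx21, Tgif2, Usp11, Wwp2 and Zfyve16; S1pr1 is named once, in a comparison the rule did not take it from. No exon of a member overlaps another gene's exon in the table. Promoter sequences come from RefSeq.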

Additional observations from a re-analysis of the deposited data

Results flagged for a closer look

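A single library stood apart from the other 3 of its group in 5 cases. The search covered the 10 members and the 25 other described genes of the lists, in every group except KO with OA. Chance flags about 1 in 20 combinations of gene and group, and the 5 cases are not more than that rate gives. Smad7 was at 31.8 CPM in untreated WT replicate 3, Eng at 7.93 CPM in WT with OA replicate 3, Runx1 at 2.94 CPM in untreated KO replicate 4, Itgae at 98.4 CPM in KO with AA replicate 2 and Cdkn1a at 4.29 CPM in WT with AA replicate 4.

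The effect of AA differed between KO and WT by edgeR's test of the difference for these genes, as log2 of the KO effect minus the WT effect. Among the members it was 0.35 for Smad7, 0.29 for Ski, 0.27 for Skil and -0.16 for Tgfb1. Among other genes of the pathway it was 1.02 for Ldlrad4, 0.55 for Tgif1, 0.41 for Gadd45b, 0.34 for Nt5e, 0.14 for Itgae, -0.20 for Ctbp1, -0.41 for Entpd1, -0.43 for Gzmb, -0.57 for Eomes and -1.04 for Tgfb3. The value for Nt5e passed at adjusted p = 0.0198 and was lost without untreated WT replicate 1 (0.0551), that for Itgae was lost with no filter (0.0731), and that for Ctbp1 passed at 0.0154 and was lost without WT with AA replicate 3 (log2 -0.14, adjusted p = 0.101). The value for Entpd1 passed at adjusted p = 0.0328 and was lost with no filter (0.0610), with only the groups compared (0.0668) and without KO with AA replicate 2 (0.0601) or 3 (0.0690), untreated KO replicate 3 (0.0904), WT with AA replicate 1 (0.0781) or 3 (0.114) or untreated WT replicate 3 (0.0836).

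With OA, Itgae fell by 0.29 on the log2 scale in KO, where all libraries were below the untreated ones. In WT all libraries with OA were above the untreated ones, but only by 0.03 on the log2 scale between group means. The WT libraries with OA averaged 413 CPM with a minimum of 409.2 CPM. Untreated WT averaged 405 CPM with a maximum of 408.6 CPM. This flag rests on the direction of the libraries and not on a test.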

How the results depend on the processing

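Over 1410 combinations of a member, a comparison with a test and an alternative, 1366 stayed on the same side of the threshold, 31 lost the call, 13 gained it and 0 reversed while called. The 360 values given without a test moved by less than the SD between replicates. Replicate numbers did not pair the libraries: the correlation of deviations was over 0.1 in 1 of 33 same-numbered pairs (-0.037 to 0.110), and 5 of 23 libraries correlated best with their own number. With the number as a block, 8 members were called in KO against WT untreated and 59 genes with AA in WT; no count of calls moved by over 1.5 times. With AA in WT, members called were 0, and 1 with DESeq2 or with no filter (Smad3); genes called were 75, and 137 with DESeq2. Upper quartile factors gave 28.2% of calls as higher, against 38.7% with TMM, for AA in WT, and 57.7% against 47.1% for the OA effect between genotypes. When single libraries were left out, members called lay at 8 to 8 for KO against WT untreated, 6 to 7 with AA, 5 to 7 with OA, 0 to 1 for AA in WT (1 without untreated WT replicate 3), 4 to 6 for AA in KO, 1 to 1 for OA in WT, 3 to 5 for OA in KO (3 without untreated KO replicate 2), 1 to 1 and 3 to 4 for AA against OA in WT and KO, and 3 to 4 for the AA effect between genotypes. Genes called lay at 48 to 73 for AA in WT (48 without untreated WT replicate 1), 436 to 642 for OA in WT (main 672; 436 without untreated WT replicate 2) and 349 to 412 for AA against OA in WT (main 531; 349 without WT with OA replicate 4). The cause of these changes was not tested. The SE of the untreated KO minus WT log2 difference was 0.180 for Tgfb3, a gene of low counts, and 0.0303 for Tgfbr2. The part of depth in that gap was not tested.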
